A study of Mus musculus with 30 samples.

Results

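Spinal cord microglia were compared between 2 surgical models of neuropathic pain on the same day, chronic constriction injury (CCI) and spared nerve injury (SNI) of the sciatic nerve, each at 7 days post injury (dpi). The comparison rests on 4 of the 30 libraries of the series, which are the 2 labelled CCI_7dpi and the 2 labelled SNI_7dpi, chosen by their column names. All came from C57BL/6J mice and from the caudal lumbar cord, from which myelin was removed before cells were selected magnetically for CD11b, an integrin of microglia that monocytes and neutrophils also carry. The labels give neither age nor sex, do not say whether a library is 1 animal or a pool, and name neither the side nor the dorsal or ventral part of the cord. The p-values below therefore measure the spread between libraries of a group, pooled over 14 injury and 9 control libraries and not only these 4. Levels in 9 control libraries, of which 2 were naive and 7 came from saline-injected mice, are given beside the results as a scale.

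Microglia are macrophages that live in the brain and spinal cord. After damage to a peripheral nerve those near its terminals in the spinal cord divide, change shape and release signals that raise the excitability of pain pathways, with the purinergic receptor P2X4 among the best studied parts of that response. In constriction injury loose ligatures leave the sciatic nerve in continuity but swollen and partly degenerating. In spared nerve injury the tibial and common peroneal branches are tied and cut while the sural branch is left intact.

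No gene separated constriction from spared injury beyond the spread between libraries. Of 11759 tested genes, 0 passed an adjusted p under 0.05 (limma on log2(FPKM + 1), Benjamini-Hochberg adjustment), which is 0% of them, and the lowest adjusted p was 1. Before adjustment 134 genes had p under 0.05, where 588 would be expected by chance, and 129 of them (1.1% of all tested genes) were higher in CCI_7dpi and 5 (0.0425%) lower. The differences were not centred on 0, since 71.7% were positive and their median was 0.15. Quantile normalization moved that median to -0.02 and median-ratio scaling to -0.01, so the values below are best read against 0.15. In 26.1% of genes both CCI_7dpi libraries stood above both SNI_7dpi libraries, and in 4.82% both stood below. A missed threshold does not show that the injuries act alike. The 95% interval of the difference lay within a 2-fold change in either direction for 1544 genes, or 13.1%, and its median half-width was 1.10 on the log2 scale, a factor of 2.14. In simulated data of the same groups, changes were placed only in better expressed genes and the noise was independent between genes. There 24 of 50 genes with a log2 difference of 2 and 21 of 50 with a difference of -2 were called. For a difference of 3 it was 45 of 50 and for a difference of 1 it was 1 of 50, with 7 false calls.

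The libraries of one injury were no more alike than those of different injuries. Pearson's correlation of log2(FPKM + 1) across genes was 0.955 between the CCI_7dpi libraries and 0.958 between the SNI_7dpi libraries, and it ran from 0.940 to 0.979 between injuries. The highest of these values, 0.979, joined CCI_7dpi replicate 2 to SNI_7dpi replicate 1, which differed at least 2-fold in 123 genes. The CCI_7dpi replicates differed by that much in 781 genes and the SNI_7dpi replicates in 635. Over all 30 libraries the nearest to CCI_7dpi replicate 1 was one from mice on fixed-regimen morphine (0.982), while the other 3 were nearest to a naive library. No depth can be read from the deposited values. A relative floor that falls as depth rises was 0.118 and 0.198 in CCI_7dpi and 0.111 and 0.202 in SNI_7dpi, so it differed between replicate numbers and not between injuries. Genes with at least 1 FPKM numbered 10217 and 9868 in CCI_7dpi and 9878 and 9760 in SNI_7dpi.

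**Figure D1:**
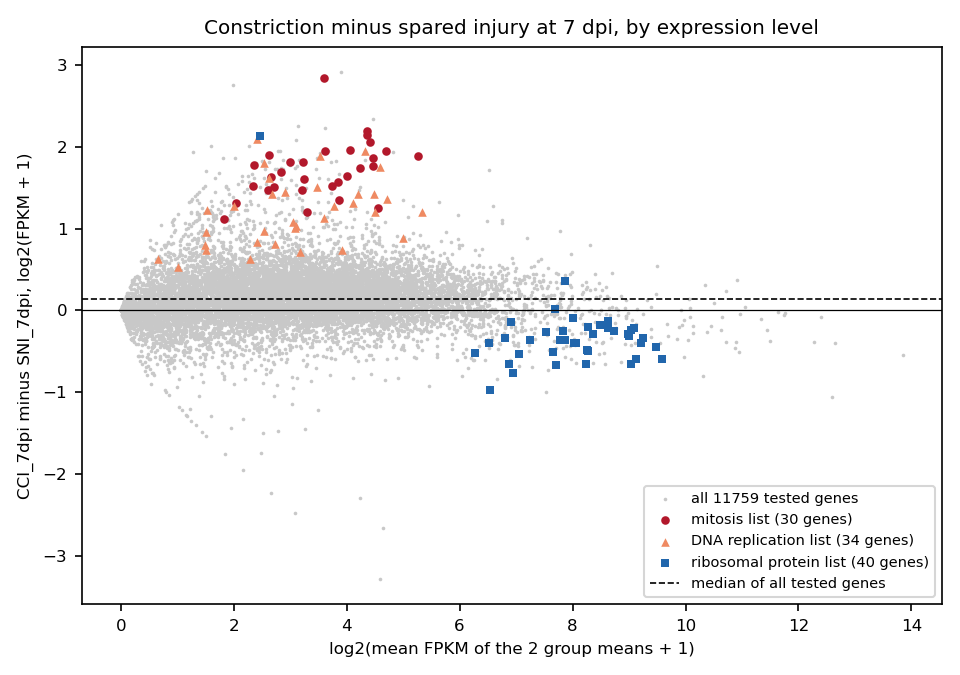
Each point is 1 of 11759 tested genes, with its expression level on the horizontal axis and the difference CCI_7dpi minus SNI_7dpi on the vertical axis, both on a log2 scale. All 30 mitosis genes and all 34 DNA replication genes lie above 0, 37 of 40 ribosomal protein genes lie below it, and none of these genes passed an adjusted p under 0.05.

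Genes of cell division had the highest median differences of the 24 gene lists, and 1 library carried most of that height. All 30 measured mitosis genes had positive differences, with a median of 1.71 on the log2 scale, and so did all 34 DNA replication genes, with a median of 1.20, against 0.15 over all genes. Before adjustment 14 mitosis genes and 10 replication genes had p under 0.05, all higher in CCI_7dpi, against 1.1% of all tested genes, and the other genes with such a p were in neither list. Both CCI_7dpi libraries stood above both SNI_7dpi libraries for 21 mitosis genes and 22 replication genes, against 26.1% of all genes. None was called after adjustment over all genes. Without CCI_7dpi replicate 1 the medians were 0.47 and 0.31, with 26 genes of each list still positive, and without CCI_7dpi replicate 2 they were 2.92 and 2.11. With both replicates of each injury kept, the medians stayed between 1.53 and 1.97 for mitosis and between 1.01 and 1.39 for replication over 15 alternatives.

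Mki67, which encodes the proliferation marker Ki-67, had 47.9 and 6.06 FPKM in CCI_7dpi and 5.86 and 2.35 FPKM in SNI_7dpi. The groups did not overlap, but CCI_7dpi replicate 2 stood next to SNI_7dpi replicate 1 and far from its own replicate. In controls it ran from 0.949 to 8.24 FPKM with a median of 1.21, so 3 of the 4 injury libraries lay within the control range. Foxm1, a transcription factor that drives genes of late cell cycle, had 23.8 and 4.59 FPKM in CCI_7dpi against 3.14 and 1.71 FPKM in SNI_7dpi, a log2 difference of 1.81 ± 0.70 (SE) with a 95% interval of 0.36 to 3.27 (adjusted p = 1, limma). Its control values ran from 0 FPKM up, with a highest value of 4.40 FPKM.

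Kinases and motors of mitosis followed the same order of libraries. Plk4, the kinase that starts centriole duplication, had 12.5 and 3.67 FPKM in CCI_7dpi against 1.74 and 0.841 FPKM in SNI_7dpi and a log2 difference of 1.82 ± 0.63, and its p was the lowest among genes without overlap that averaged 5 FPKM or more in either group. Ect2, which acts in cytokinesis, had 11.6 and 3.14 FPKM in CCI_7dpi against 1.42 and 0.787 FPKM in SNI_7dpi. The kinase gene Nek2, which acts in centrosome separation, had 19.0 and 2.198 FPKM in CCI_7dpi against 1.93 and 0.466 FPKM in SNI_7dpi. For all 3 the first CCI_7dpi library was at least 3 times as high as any other of the 4. Bub1, a spindle checkpoint kinase gene, had 16.1 and 2.47 FPKM in CCI_7dpi and 1.60 and 0.645 FPKM in SNI_7dpi. Melk, another kinase gene of dividing cells, had 12.4 and 2.23 FPKM in CCI_7dpi against 1.18 and 0.703 FPKM in SNI_7dpi. Kif20a, a kinesin gene of cytokinesis, had 36.0 and 5.18 FPKM in CCI_7dpi, against 3.47 FPKM in SNI_7dpi replicate 1 and a listing at 0 in replicate 2. Further genes among the 10 of lowest p were the condensin subunit gene Ncapg2, the DNA glycosylase gene Neil3 and Fignl1, which acts in homologous recombination, with log2 differences of 1.49 ± 0.55, 1.58 ± 0.62 and 1.84 ± 0.70.

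DNA replication genes had a lower median than mitosis genes, 1.20 against 1.71, though single members differed as much. Uhrf1, which takes part in copying DNA methylation onto new strands, had 31.7 and 4.61 FPKM in CCI_7dpi against 3.59 and 1.92 FPKM in SNI_7dpi, a log2 difference of 1.89 ± 0.70. Chaf1a, a subunit of the histone chaperone CAF-1, had 14.3 and 2.95 FPKM in CCI_7dpi against 2.36 and 0.901 FPKM in SNI_7dpi. Ccne1, the cyclin E1 gene of the entry into S phase, had 14.5 and 2.37 FPKM in CCI_7dpi and 1.44 and 0.762 FPKM in SNI_7dpi. In these 3 genes CCI_7dpi replicate 2 exceeded the SNI_7dpi libraries by far less than replicate 1 did. Tyms, the thymidylate synthase gene, had 18.2 and 3.20 FPKM in CCI_7dpi against 2.52 and 2.06 FPKM in SNI_7dpi. Mcm6, a subunit of the replicative helicase, had 60.3 and 16.6 FPKM in CCI_7dpi against 12.96 and 10.8 FPKM in SNI_7dpi. Its log2 difference was 1.36 ± 0.65 with a 95% interval of -0.01 to 2.72, and the control range of 3.69 to 15.0 FPKM held both SNI_7dpi libraries and neither CCI_7dpi library.

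The mean log2(FPKM + 1) over the mitosis list was 4.97 and 2.44 in CCI_7dpi and 2.39 and 1.60 in SNI_7dpi. Among the 30 libraries the means near that of CCI_7dpi replicate 1 were those of 2 fixed-morphine libraries, at 5.07 and 4.92, and CCI_2dpi replicate 2, at 4.56, while the other CCI_2dpi library had 1.49. The labels name no batch, and whether CCI_7dpi replicate 1 shared one with the fixed-morphine libraries was not tested. The controls ran from 1.01 to 2.79, with the highest value in naive replicate 2, so that only CCI_7dpi replicate 1 lay outside their range. Cells of the marrow lineages also divide, and their markers were therefore read in the same libraries. All 16 neutrophil markers were tested and 2 had positive differences, with a summed level of 8087 and 4412 FPKM in CCI_7dpi, 6111 and 9590 FPKM in SNI_7dpi and 5838 to 63445 FPKM in the controls. Of 13 monocyte markers 12 were tested and 3 were positive, and the sums were 414 and 227 FPKM in CCI_7dpi, 240 and 437 FPKM in SNI_7dpi and 311 to 2611 FPKM in the controls. The T and NK cell markers, of which 3 of 13 were tested and 0 were positive, summed to 2.36 and 0.843 FPKM in CCI_7dpi and to 2.23 and 5.70 FPKM in SNI_7dpi, with Cd8a, Klrb1c and Ncr1 at 0 in all 4 libraries. Of the 4 libraries SNI_7dpi replicate 2 had the lowest mitosis mean and the highest sum of each of these 3 lists. Within CCI_7dpi the order was the other way, since replicate 1 had the higher mitosis mean and the higher sum of each list. The part of these cells in the difference was not tested. In RNA from sorted cells, more dividing cells and more transcript per cell cannot be told apart.

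**Figure D2:**
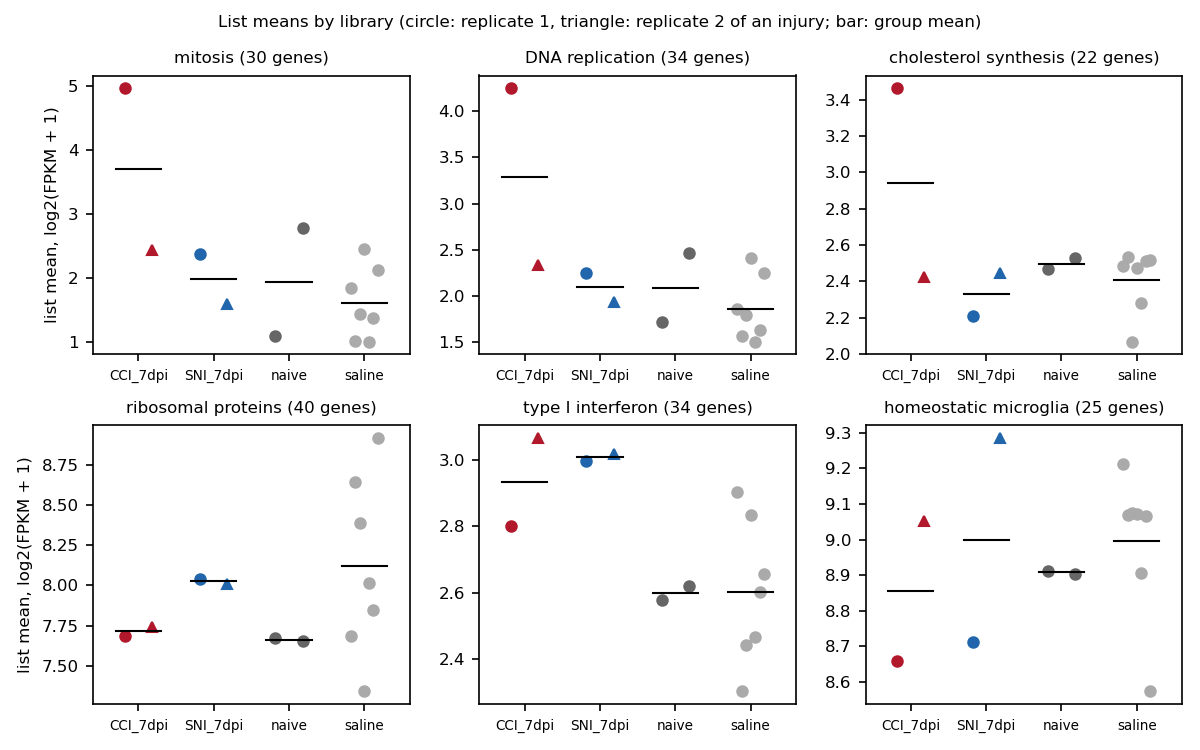
Each panel shows the mean log2(FPKM + 1) over a gene list in every library of CCI_7dpi, SNI_7dpi, naive and saline mice, with a bar at the group mean and axes that do not start at 0. CCI_7dpi replicate 1, the red circle, stands above every other library shown for mitosis (4.97), DNA replication (4.25) and cholesterol synthesis (3.46), while the ribosomal protein means of CCI_7dpi (7.69 and 7.74) both lie below those of SNI_7dpi (8.04 and 8.01).

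The promoters of 4 of these genes are shown because the differences of both lists had one sign and motifs bound by cell cycle regulators are known. They are the 120 bases before the transcription start in RefSeq on build GRCm38.p6, 5′ to 3′ on the strand of the gene, at chr7:135716380-135716499 (minus strand) for Mki67, chr2:127831860-127831979 (minus) for Bub1, chr17:56303217-56303336 (plus, the first of 2 starts) for Uhrf1 and chr1:128359706-128359825 (minus) for Mcm6. Capitals mark a match on either strand to TTTGAA, the core of the CHR element, to CCAAT, the box bound by NF-Y, or to TTTNNCGC, a loose form of the E2F site.
Mki67: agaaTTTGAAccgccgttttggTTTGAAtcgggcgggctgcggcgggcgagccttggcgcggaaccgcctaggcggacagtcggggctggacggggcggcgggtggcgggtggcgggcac
Bub1: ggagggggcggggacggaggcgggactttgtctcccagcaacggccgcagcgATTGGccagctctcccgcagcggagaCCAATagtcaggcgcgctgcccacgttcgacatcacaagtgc
Uhrf1: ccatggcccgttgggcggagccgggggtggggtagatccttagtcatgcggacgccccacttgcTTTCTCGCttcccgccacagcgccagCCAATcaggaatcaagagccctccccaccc
Mcm6: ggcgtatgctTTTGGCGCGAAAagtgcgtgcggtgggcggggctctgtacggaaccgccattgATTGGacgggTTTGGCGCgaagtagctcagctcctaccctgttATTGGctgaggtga

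In Mki67 the marked bases are a pair of CHR cores that begin at -116 and -98, and in Bub1 they are CCAAT boxes at -68 and -42 in opposite directions. Uhrf1 holds an E2F match at -56 and a CCAAT box at -30. The matches in Mcm6 are to E2F at -110, -106 and -47, the first pair overlapping on opposite strands, and to CCAAT at -57 and -14. Over windows of 250 bases before the start, CCAAT was in 80.0% of 25 mitosis promoters and 54.5% of 33 replication promoters, against 33.8% of all 32851 promoters. The E2F letters were in 30.3% of the replication promoters and 8.00% of the mitosis promoters, against 4.28% of all. The CHR core was in 32.0% of mitosis and 9.09% of replication promoters, against 16.0% of all. Among the 11537 promoters of tested genes the shares were 35.3% for CCAAT, 6.82% for E2F and 10.8% for CHR, which puts E2F in mitosis promoters and CHR in replication promoters near that level. Of the tested members 24 of 30 mitosis and 28 of 34 replication genes had a promoter in the table. A match describes letters and is not a shown binding site.

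Cholesterol synthesis genes stood with cell division in CCI_7dpi replicate 1. All 22 tested genes of the list had positive differences, with a median of 0.57 against 0.15 over all genes, 8 of the 22 were higher without overlap, against 26.1% of all genes, and 1, Idi1, had an unadjusted p under 0.05, against 1.1%. Idi1, an isomerase gene of the mevalonate pathway, had 10.1 and 4.60 FPKM in CCI_7dpi against 2.25 and 2.60 FPKM in SNI_7dpi, a log2 difference of 1.21 ± 0.53 (95% interval 0.10 to 2.31). Its control range of 1.68 to 10.8 FPKM held all 4 values. Sqle, the squalene epoxidase gene, had 12.7 and 2.56 FPKM in CCI_7dpi against 1.82 and 2.10 FPKM in SNI_7dpi. Without CCI_7dpi replicate 1 the median of the list was 0.04, and 13 of the 22 genes were positive. Genes of endoplasmic reticulum stress had 17 of 19 positive differences, against 71.7% of all genes, and a median of 0.36. Of the 19 genes 2 were higher without overlap, against 26.1% of all genes, among them Hsp90b1. Hsp90b1, a chaperone gene of that compartment, had 297 and 199 FPKM in CCI_7dpi against 175 and 181 FPKM in SNI_7dpi. The median was 0.04 without CCI_7dpi replicate 1 and also without SNI_7dpi replicate 1.

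Ribosomal protein genes ran the other way, and here the list means of the replicates of each injury stood together. Of 40 genes 37 had negative differences, with a median of -0.36 against 0.15 over all genes. In 30 of the 40 both CCI_7dpi libraries lay below both SNI_7dpi libraries, against 4.82% of all genes. The list means were 7.69 and 7.74 in CCI_7dpi and 8.04 and 8.01 in SNI_7dpi, on the log2 scale. Rps7 had 139 and 182 FPKM in CCI_7dpi against 211 and 304 FPKM in SNI_7dpi. Rps9 had 518 and 714 FPKM in CCI_7dpi against 861 and 983 FPKM in SNI_7dpi, and Rps14 had 392 and 422 FPKM in CCI_7dpi against 630 and 656 FPKM in SNI_7dpi. All 3 encode proteins of the small ribosomal subunit, and their log2 differences of -0.67 ± 0.47, -0.60 ± 0.43 and -0.66 ± 0.50 did not pass. No member reached an unadjusted p under 0.05. The median ran from -0.56 to -0.24 over all 19 alternatives, with each of the 4 libraries left out in turn among them. The spread among controls was wider than this gap, since their list means ran from 7.34 to 8.92, and the naive libraries had 7.67 and 7.65, below both SNI_7dpi libraries. Ribosomal protein genes have many near-identical processed copies in the genome, and how the authors' processing shared reads among them is not given in the sources used here.

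Few of the genes lower in CCI_7dpi had a low p. The 5 at an unadjusted p under 0.05 were Crybb1, Pcdhgb4, Mea1, Snord8 and Yipf2, of which the last 3 are named because the count is small. Crybb1, a crystallin gene that microglia express, had 53.7 and 94.0 FPKM in CCI_7dpi against 120 and 135 FPKM in SNI_7dpi, a log2 difference of -0.83 ± 0.37 (95% interval -1.62 to -0.05). Its controls ran from 77.5 to 255 FPKM. Mea1 had 24.2 FPKM in CCI_7dpi replicate 1 but was listed at 0 in replicate 2, with 24.4 and 22.8 FPKM in SNI_7dpi. Snord8 and Yipf2 were listed at 0 in both CCI_7dpi libraries and in 1 of the SNI_7dpi libraries each. Pcdhgb4, a member of the protocadherin gamma cluster whose genes share exons, was listed at 0 in CCI_7dpi replicate 1. Genes with a listed 0 can jump far between libraries. Nt5dc2 had 55.4 FPKM in CCI_7dpi replicate 1 and 0 in the other 3 and all 9 controls. Gngt2 had 92.8 FPKM in SNI_7dpi replicate 1 and 0 in the other 3. Whether a listed 0 is a true absence or a failed estimate was not tested. Cog5, a Golgi complex gene, had 4.34 and 7.57 FPKM in CCI_7dpi and was listed at 0 in both SNI_7dpi libraries, and also in both naive libraries. Over all 9 controls it ran from 0 to 8.10 FPKM with a median of 4.96 FPKM, a range that held both CCI_7dpi values.

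Antigen presentation genes included several of the remaining lower genes of smallest p. H2-K1, a classical MHC class I heavy chain gene, had 158 and 260 FPKM in CCI_7dpi against 272 and 370 FPKM in SNI_7dpi, a log2 difference of -0.64 ± 0.38. The controls ran from 159 to 237 FPKM, so both SNI_7dpi libraries lay above all 9 of them, as 1 CCI_7dpi library did. H2-D1, its companion gene, had 618 and 1010 FPKM in CCI_7dpi and 918 and 1493 FPKM in SNI_7dpi, which overlap, against 393 to 800 FPKM in controls. Of the 16 genes of class I presentation 6 were positive, against 71.7% of all genes, with a median of -0.04, and 3 were lower without overlap, against 4.82%. H2-Oa, part of the H2-O chaperone that restrains peptide loading of class II, had 11.2 and 24.8 FPKM in CCI_7dpi against 26.7 and 35.5 FPKM in SNI_7dpi (-0.84 ± 0.48). For 6 of 7 class II genes the difference was negative, the list's median being -0.59, but their list mean was 4.59 and 5.15 in CCI_7dpi and 4.91 and 5.86 in SNI_7dpi, and without SNI_7dpi replicate 2 the median was 0.03. H2 genes are close copies of each other, so reads may have been split among them. Also below without overlap were Rab20, a GTPase gene of phagosome maturation (7.61 and 4.98 FPKM in CCI_7dpi against 9.77 and 14.7 FPKM in SNI_7dpi), the chemokine gene Ccl5 (3.27 and 2.90 FPKM in CCI_7dpi against 4.78 and 11.2 FPKM in SNI_7dpi) and the cytokine receptor gene Crlf2 (13.9 and 18.3 FPKM in CCI_7dpi against 21.4 and 26.3 FPKM in SNI_7dpi). The other 3 of the 10 lower genes of lowest p, Map1lc3a, Vgll4 and H2-Q5, had log2 differences of -0.60 ± 0.40, -0.59 ± 0.38 and -0.78 ± 0.51.

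**Figure D3:**
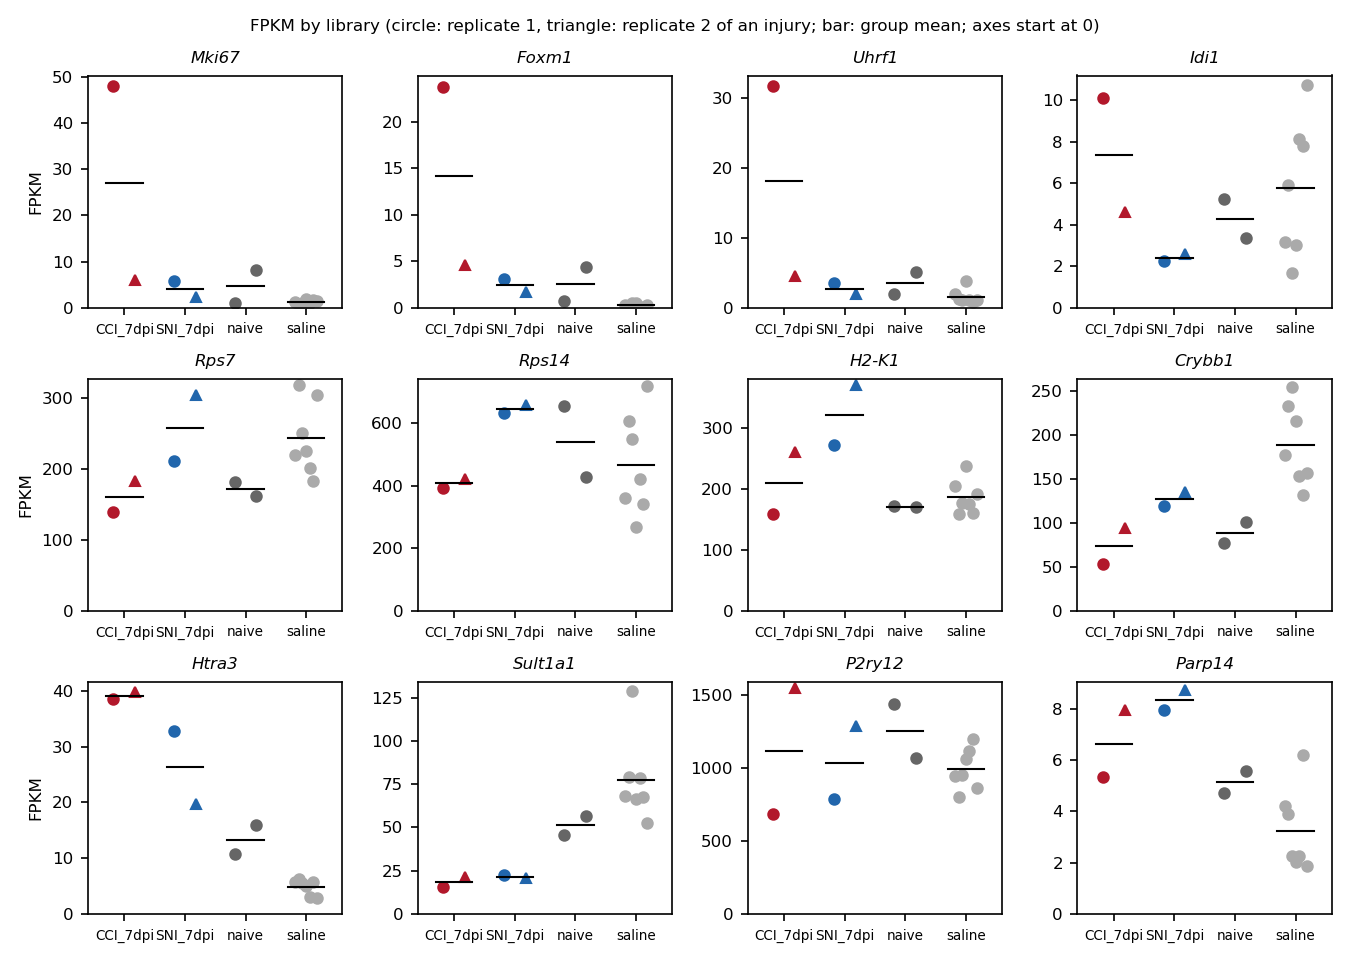
Each panel shows 1 gene in FPKM for every library of CCI_7dpi, SNI_7dpi, naive and saline mice, with a bar at the group mean and axes from 0. Mki67, Foxm1 and Uhrf1 are high in CCI_7dpi replicate 1 (47.9, 23.8 and 31.7 FPKM), Rps14 is lower in both CCI_7dpi libraries (392 and 422 FPKM) than in both SNI_7dpi libraries (630 and 656 FPKM) with all 4 inside the control range, and Htra3 and Sult1a1 place all 4 injury libraries outside the range of the controls.

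The best known genes of microglial identity overlapped between the injuries. P2ry12, the ADP receptor that steers microglial processes, had 684 and 1550 FPKM in CCI_7dpi and 785 and 1288 FPKM in SNI_7dpi, a log2 difference of 0.03 ± 0.41 with a 95% interval of -0.82 to 0.89, and -0.17 with median-ratio scaling. Tmem119, a microglial surface marker, had 1050 and 1018 FPKM in CCI_7dpi against 840 and 1417 FPKM in SNI_7dpi, with an interval of -1.17 to 1.02, and its difference of -0.08 was 0.0699 with quantile normalization. Cx3cr1, the fractalkine receptor gene, had 832 and 612 FPKM in CCI_7dpi against 644 and 1227 FPKM in SNI_7dpi (interval -1.44 to 0.80), and Csf1r, the receptor that microglia need for survival, had 2089 and 2834 FPKM in CCI_7dpi against 2010 and 3380 FPKM in SNI_7dpi (interval -1.36 to 1.16). All 25 homeostatic genes were measured and 6 were positive, against 71.7% of all genes, with 5 lower without overlap, against 4.82%, and 1 higher. Their median was -0.10, and it was -0.30 with median-ratio scaling and -0.04 with quantile normalization, with 2 and 9 genes positive. It was 0.08 with 14 positive without CCI_7dpi replicate 1, and 0.25 with 18 positive without SNI_7dpi replicate 2. Without CCI_7dpi replicate 2 it was -0.37, and without SNI_7dpi replicate 1 it was -0.44. These microglial markers were high in all 4 libraries, while those of astrocytes summed to 31.5 to 122 FPKM. Neutrophil markers summed to 4412 to 9590 FPKM, as given above. The 3 tested red cell markers summed to 0.704 to 9.80 FPKM, but their list lacks the haemoglobin genes Hbb-b1 and Hbb-b2. Hbb-b1 had 54.9 and 29.5 FPKM in CCI_7dpi and 15.0 and 244 FPKM in SNI_7dpi.

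Genes tied to neuropathic pain and inflammation mostly overlapped as well, as did most tested genes. Of 26 tested pain genes 4 were higher without overlap, against 26.1% of all genes, and 1 was lower, against 4.82%. P2rx4, the gene of the P2X4 receptor, had 36.9 and 43.8 FPKM in CCI_7dpi and 37.7 and 50.5 FPKM in SNI_7dpi, an interval of -1.07 to 0.84 on the log2 scale. Over 26 spinal microglia genes linked to pain 12 were positive and 14 negative, with a median of -0.02, and of -0.21 with median-ratio scaling. The single gene at an unadjusted p under 0.05 was Hmgb1, a chromatin protein that signals when released, with 54.8 and 42.3 FPKM in CCI_7dpi against 30.2 and 25.5 FPKM in SNI_7dpi (log2 difference 0.77 ± 0.34, interval 0.07 to 1.47). Its groups did not overlap, and the control range of 26.2 to 48.9 FPKM covered 1 library of each injury. The cytokine genes Tnf and Il1b were low. Tnf was higher without overlap, with 2.84 and 1.66 FPKM in CCI_7dpi against 1.25 and 0.451 FPKM in SNI_7dpi. Il1b overlapped, with 0.966 and 4.13 FPKM in CCI_7dpi against 2.84 and 3.37 FPKM in SNI_7dpi. Cytokine, chemokine and Toll-like receptor lists had medians of -0.02, -0.07 and 0.02, all under the 0.15 of all genes. They were -0.22, -0.18 and -0.15 with median-ratio scaling and -0.18 for each with quantile normalization, and 2 of 19 Toll-like receptor genes were then positive, against 11 in the values as deposited. Apoe, the lipid carrier that activated microglia raise, had 682 and 1213 FPKM in CCI_7dpi against 1345 and 1854 FPKM in SNI_7dpi, and Trem2, a lipid-sensing receptor gene, had 425 and 522 FPKM in CCI_7dpi against 568 and 676 FPKM in SNI_7dpi. Apoe and Trem2 were both lower in CCI_7dpi without overlap, and neither passed. The 24 genes of the activated list had a median of -0.16, and of -0.36 with median-ratio scaling. That median was 0.05 without CCI_7dpi replicate 1 and 0.15 without SNI_7dpi replicate 2. It was -0.21 without CCI_7dpi replicate 2 and -0.38 without SNI_7dpi replicate 1.

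Type I interferon genes, which sense and restrict viruses, stood slightly lower in CCI_7dpi relative to all genes, by an amount that depended on the scaling. Of 34 tested genes 13 were positive, against 71.7% of all genes, the median was -0.08, and 0 had an unadjusted p under 0.05 in either direction (limma, 0 called after adjustment). The median was -0.28 with quantile normalization, where 4 of 34 were positive, -0.24 with median-ratio scaling, where 6 were, and 0.05 without CCI_7dpi replicate 1. The list means were 2.80 and 3.07 in CCI_7dpi and 3.00 and 3.02 in SNI_7dpi, against 2.30 to 2.90 in the controls. Ifit1 had 2.36 and 2.60 FPKM in CCI_7dpi and 2.77 and 5.69 FPKM in SNI_7dpi, all above the highest control at 2.15 FPKM. Usp18, which removes ISG15 from proteins, had 6.05 and 7.35 FPKM in CCI_7dpi against 8.33 and 10.4 FPKM in SNI_7dpi, again above the highest control at 5.77 FPKM. Parp14, an ADP-ribosyltransferase gene, had 5.33 and 7.94 FPKM in CCI_7dpi and 7.95 and 8.71 FPKM in SNI_7dpi. These 3 genes were lower in both CCI_7dpi libraries without overlap, by log2 differences of -0.53 ± 0.53, -0.43 ± 0.74 and -0.31 ± 0.49 that did not pass. Ifit3 overlapped (7.51 and 11.4 FPKM in CCI_7dpi against 11.1 and 18.4 FPKM in SNI_7dpi). Of the 34 genes 4 were lower without overlap, against 4.82% of all genes, and 4 were higher, against 26.1%. Trim25 was among the higher ones, with 5.65 and 6.47 FPKM in CCI_7dpi against 4.80 and 4.02 FPKM in SNI_7dpi.

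Some genes lay outside the range of the 9 controls after both injuries. Htra3, a secreted serine protease gene, had 38.5 and 39.8 FPKM in CCI_7dpi and 32.8 and 19.8 FPKM in SNI_7dpi, against at most 15.9 FPKM in the controls. The CCI_7dpi libraries stood above those of SNI_7dpi by 0.60 ± 0.54 on the log2 scale (interval -0.52 to 1.72). Rspo1, a secreted enhancer of Wnt signalling, had 6.89 and 7.66 FPKM in CCI_7dpi against 5.42 and 2.54 FPKM in SNI_7dpi, where the highest control had 4.35 FPKM, so 1 SNI_7dpi library was within the control range. Sult1a1, a sulfotransferase gene, had 15.8 and 21.3 FPKM in CCI_7dpi and 22.3 and 20.9 FPKM in SNI_7dpi, all under the lowest control at 45.7 FPKM, with an interval of -1.27 to 0.82 between the injuries. The Fc receptor gene Fcgr3 had 280 and 369 FPKM in CCI_7dpi and 354 and 375 FPKM in SNI_7dpi, all under the lowest control at 480 FPKM (interval -0.95 to 0.59). Both injuries share these controls, and the genes were listed by name with earlier results known, so their distance from controls is a description.

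Energy metabolism and stress lists held no gene with p under 0.05 before adjustment (limma, 0 called), and most of their named members were highest in CCI_7dpi replicate 1. Oxidative phosphorylation genes had 16 of 20 positive differences, against 71.7% of all genes, and a median of 0.21, which was 0.01 with median-ratio scaling. Without overlap 8 were higher, against 26.1% of all genes, and 1 was lower. Cycs, the cytochrome c gene, had 24.3 and 16.0 FPKM in CCI_7dpi against 13.9 and 11.4 FPKM in SNI_7dpi, and Atp5b, an ATP synthase subunit gene, had 287 and 198 FPKM in CCI_7dpi against 156 and 192 FPKM in SNI_7dpi. Glycolysis genes had a median of 0.00 with 12 of 23 positive, and heat shock genes had a median of 0.16 with 14 of 18 positive, which was -0.03 with median-ratio scaling. Hsp90aa1, a cytosolic chaperone gene, had 53.2 and 30.4 FPKM in CCI_7dpi against 27.1 and 24.1 FPKM in SNI_7dpi. Glucocorticoid-responsive genes had 3 of 18 positive and a median of -0.21, and immediate early genes 6 of 20 and a median of -0.14, with 7 lower without overlap, against 4.82% of all genes. Glul, the glutamine synthetase gene, had 48.2 and 58.2 FPKM in CCI_7dpi and 62.7 and 99.99 FPKM in SNI_7dpi.

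With all 4 libraries, lysosome and Fc receptor genes were mostly negative, where 71.7% of all genes were positive. The lysosome list had 6 of 25 positive and a median of -0.10, and 3 positive with median-ratio scaling and 10 with quantile normalization. Its sign depended on single libraries. The median was 0.15 with 20 positive without CCI_7dpi replicate 1, and 0.14 with 18 positive without SNI_7dpi replicate 2. It was -0.38 without CCI_7dpi replicate 2 and -0.39 without SNI_7dpi replicate 1. None of the lysosome genes was lower without overlap, against 4.82% of all genes, and 3 of 25 were higher, against 26.1%. Among those 3 was Ctsc, the cathepsin C gene, which had 389 and 232 FPKM in CCI_7dpi against 153 and 228 FPKM in SNI_7dpi. Phagocytic receptor genes had 9 of 15 positive and a median of 0.10, which was -0.10 with median-ratio scaling, and Gas6, a bridging ligand for dying cells, had 113 and 106 FPKM in CCI_7dpi against 92.5 and 84.8 FPKM in SNI_7dpi. Secreted and matrix genes had 13 of 23 positive and a median of 0.18, which was -0.01 with median-ratio scaling, complement genes 5 of 13 and a median of -0.03, and Fc receptor genes 0 of 7 and a median of -0.08. Of the markers of other cells, border macrophages had 3 of 10 positive, B cells 3 of 6, oligodendrocytes 8 of 12, their precursors 0 of 1, neurons 5 of 10, endothelial and mural cells 0 of 5, Schwann cells 2 of 2, astrocytes 0 of 11 and red cells 0 of 3.

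The gaps between replicates of constriction, by the largest differences in each direction, included lipid export genes. The cholesterol exporter genes Abca1 and Abcg1 had 5.41 and 6.18 FPKM in CCI_7dpi replicate 1 and 15.6 and 22.6 FPKM in replicate 2. In the SNI_7dpi libraries Abca1 had 11.4 and 18.6 FPKM and Abcg1 had 14.4 and 23.2 FPKM. Of the 4 libraries CCI_7dpi replicate 1 had the lowest values of these exporters and the highest of Idi1 and Sqle. Its exporter values lay within the control ranges, 4.88 to 12.6 FPKM for Abca1 and 5.53 to 21.6 FPKM for Abcg1. In replicate 2 of each injury both exporter genes exceeded the highest control. Sepp1, the gene of the selenium carrier selenoprotein P, had 382 and 985 FPKM in CCI_7dpi and 714 and 921 FPKM in SNI_7dpi.

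**Figure D4:**
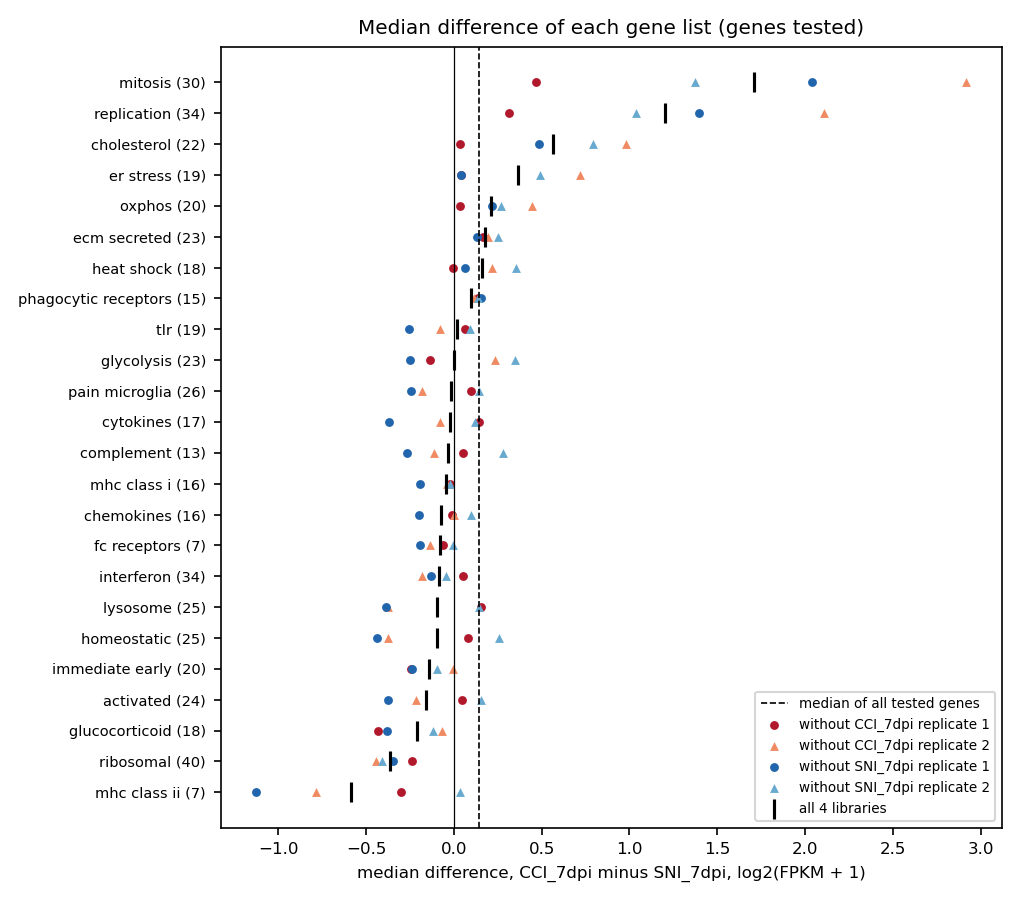
Each row is a gene list with its number of tested genes, and the marks give the median difference CCI_7dpi minus SNI_7dpi on the log2(FPKM + 1) scale with all 4 libraries (black bar) and with 1 library left out. The mitosis median of 1.71 falls to 0.47 without CCI_7dpi replicate 1, while the ribosomal median of -0.36 stays between -0.45 and -0.24 whichever of the 4 is left out.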

How the data were processed

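Per the labels' protocols, Smart-Seq2 amplified full-length cDNA from the CD11b-selected cells and Nextera XT made the libraries. The authors deposited FPKM values, which divide fragments by transcript length and by the mapped total, in a table of 24888 rows. Per the submitters' processing notes, build mm10 and the tools featureCounts 1.4.6, Cufflinks 2.2.1 and HISAT2 2.0.5.1, with DESeq2, were used. Which tool made the values, and the annotation, are not given in the sources used here. No counts are given, so depth is unknown and no counting interval was computed. The relative floor is the 5th percentile of nonzero FPKM times the longest transcript's length (GENCODE M21).

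Rows of 281 repeated symbols (826) were left out, and genes with at least 1 FPKM in at least 2 of 30 libraries were kept, 11759 in all. Values were log2(FPKM + 1), so a difference understates the change of low genes. The contrast CCI_7dpi minus SNI_7dpi was tested with limma 3.58.1 in R 4.3.3 (two-sided, with an intensity trend) in 1 fit of the 14 injury and 9 control libraries, each of 10 groups with its own mean, and p-values were adjusted over all genes. Alternatives changed the pseudocount, filter, scaling, weights, libraries fitted, trend and replicate block, and left out each library. The procedure was tested on simulated data. Python 3.11.15, pandas 2.3.3 and matplotlib 3.10.9 made the tables and figures.

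Named genes were the called genes of largest difference with a mean of at least 5 FPKM and no overlap, 10 in each direction, with places left filled by lowest p, then up to 4 members of each of 36 lists by lowest p, fixed names, and the 5 widest gaps in each direction between replicates of an injury. Not all of these are given. The members, lists and fixed names were chosen with earlier results of these data known.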

Additional observations from a re-analysis of the deposited data

How the results depend on the processing

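The count of genes called between CCI_7dpi and SNI_7dpi was 0 under 17 of 19 alternatives (limma). It was 2 with no filter on low values, where the called genes Btnl1 and Nxpe5 were listed at 0 in both CCI_7dpi libraries and under 1 FPKM in SNI_7dpi, and it ran from 0 to 1 over the settings that left out 1 of the 4 libraries, the 1 being Mea1 without CCI_7dpi replicate 1. At an unadjusted p under 0.05 the count ran from 17 without SNI_7dpi replicate 2 to 603 with array weights, and it was 20 without CCI_7dpi replicate 1. With the replicate number as a block 0 genes were called and 124 had an unadjusted p under 0.05. The labels give no reason to pair the numbers, and the deviations of same-numbered libraries correlated at 0.095. Of 1063 values of single named genes under the alternatives 12 reversed direction, in 7 genes. P2ry12 was -0.17 with median-ratio scaling and Tmem119 was 0.0699 with quantile normalization. Leaving out 1 library gave log2 differences from -0.56 to 0.62 for P2ry12, -0.45 to 0.30 for Tmem119, -0.47 to 0.28 for Csf1r, -0.78 to 0.15 for Cx3cr1, -0.32 to 0.092 for P2rx4, -0.38 to 0.016 for Fcgr3 and -4.62 to 0.036 for Mea1. Of 684 list medians 43 moved by more than the spread between replicates. The cause was not tested. With 2 libraries a group the simulated data gave 1 call of 50 at a log2 difference of 1 and 24 of 50 at 2, so many differences under about 4-fold cannot be resolved here.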
